A study of Mus musculus with 6 samples.

Results

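Peroxisome genes were compared among 3 kinds of sorted mouse adipocyte. The set held 31 genes of 17720 with a named probe set on the arrays, picked by gene symbol as a functional set, with earlier results of these data known. There were 12 Pex genes, whose proteins build the peroxisome, and 19 genes of its oxidation, lipid transport, ether lipid and catalase systems. For each gene the brightest probe set (by its mean of the 6 arrays) was read, and no filter on low values was applied, so all 31 are described.

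Each of the 3 groups had 2 arrays. Bone marrow-derived adipocytes were taken from the adipocyte fraction of gonadal fat after a marrow transplant and were collected by flow sorting on a donor marker. That marker was green fluorescent protein (GFP) for replicate 1 and bacterial beta-galactosidase (LacZ) for replicate 2, so marker and replicate cannot be told apart. White adipocytes came from gonadal fat. Brown adipocytes came from dorsal interscapular fat, written intrascapular in the labels, once the white fat had been cut away. RNA of about 5000 cells a sort was pooled over at least 6 sorts for each sample and amplified before labelling. The labels give no strain, age, sex or promoter for the markers, and name no treatment beyond the transplant. They call the replicates biological without naming separate animals, so a p-value here measures only how these samples spread, which may be technical.

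Peroxisomes are small organelles that shorten very long, branched and other unusual fatty acids, start the synthesis of ether lipids and break down the hydrogen peroxide that their oxidases release. Their proteins are made in the cytosol. Pex3, Pex16 and Pex19 insert membrane proteins, and Pex5 and Pex7 carry matrix enzymes to a docking site of Pex13 and Pex14. In fat cells peroxisomes multiply during adipogenesis and are abundant in brown fat, where they are linked to thermogenesis.

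Values are deposited levels of a probe set on a log scale. The base is not stated and was taken as 2 from the range of the values and the named method, so that a difference of 1 is a doubling, and every fold rests on this. Levels of different probe sets are not on a common scale, so each gene is compared only with itself across arrays. A gene is called lower or higher where limma's moderated test gave a Benjamini-Hochberg adjusted p under 0.05 over all 17720 genes. An error after ± is limma's standard error with n = 2 arrays in each group. All fits used the 6 arrays together, and the 2 comparisons with bone marrow-derived cells share the same arrays of those cells, so they are set side by side and not counted as independent.

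Adiponectin (Adipoq) was bright in every group, at 12.28 ± 0.59 (SD, n = 2) in bone marrow-derived, 13.23 ± 0.02 in white and 13.08 ± 0.10 in brown cells. The brown marker Ucp1 reached 13.55 ± 0.04 in brown cells, against 6.30 ± 1.95 in bone marrow-derived and 5.63 ± 1.13 in white cells. Of 9 measured brown markers, 8 were called lower in bone marrow-derived than in brown cells. The other was Prdm16, with means of 10.13 in bone marrow-derived, 8.77 in white and 10.54 in brown cells. All 12 endothelial markers, Pecam1 and Cdh5 among them, were called higher in the bone marrow-derived group against white cells, and 11 of the 12 were called lower in white than in brown cells. Xist, the RNA of the inactive X chromosome of female cells, measured 10.87 and 10.85 on the bone marrow-derived arrays and between 2.99 and 3.39 on the others. Sex, if it differed, and group cannot be told apart. Of all genes, 2409 were called lower and 2170 higher in bone marrow-derived cells against white, 2068 and 1543 against brown cells, and 946 and 686 in white cells against brown. With each array centred on its median, the first 2 splits became 2922 lower with 1687 higher and 2523 lower with 1006 higher. That centring moved every difference by -0.17 and -0.19 in these comparisons and by -0.03 between white and brown.

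Peroxisome genes were lower in bone marrow-derived adipocytes than in both conventional types. Against white cells 22 of the 31 were called lower and 0 higher, where 13.6% of all genes were called lower and 12.2% higher. Against brown cells 26 were called lower and 0 higher, where the shares of all genes were 11.7% and 8.71%. Both bone marrow-derived arrays lay below all 4 other arrays for 27 of the 31 genes, 11 Pex and 16 others, against 23.8% of all genes. The exceptions were Pex6, Acox2, Acox3 and Agps. In bulk RNA, fewer cells of a type and less RNA per cell cannot be told apart.

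**Figure D1:**
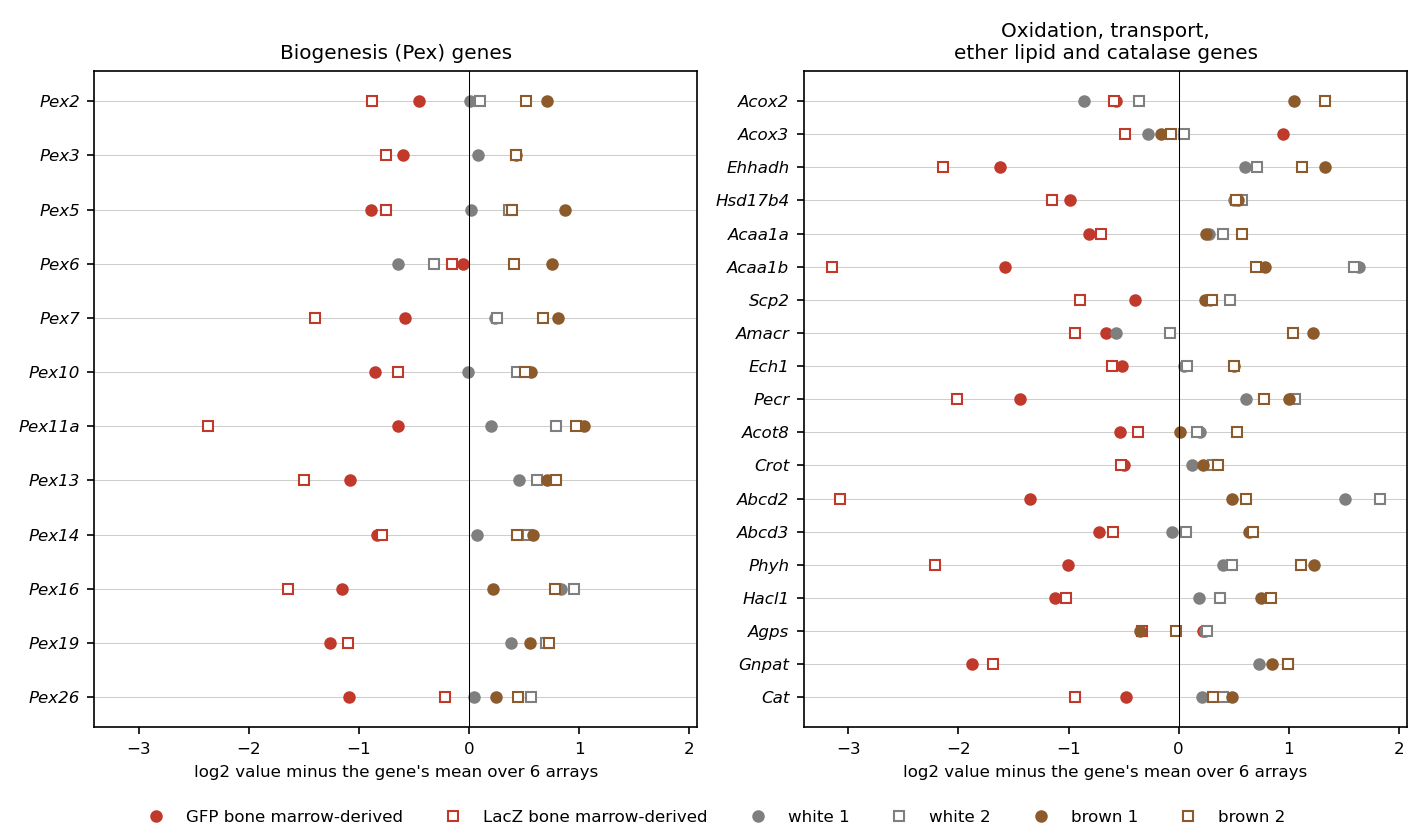
Each gene's log2 value on each of the 6 arrays, minus that gene's mean over the arrays, on the horizontal axis, with Pex genes on the left and the other peroxisome genes on the right. Red symbols (GFP filled, LacZ open) lie left of all grey (white adipocyte) and brown (brown adipocyte) symbols for 27 of the 31 genes, and the GFP and LacZ symbols stand furthest apart for Pex11a and Abcd2.

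The Pex genes had a median difference of -1.06 from white cells, with a range from -2.29 to 0.38, where the median of all genes was -0.07. Of the 12, 8 were called lower and 0 higher. Against brown cells the median was -1.39, with a range from -2.51 to -0.69, where the median of all genes was 0.02, and 10 of the 12 were called lower. Leaving out any array takes residual degrees of freedom away, and fewer of all genes were then called in these comparisons. Brown arrays enter the test against white cells only through the shared estimate of spread. The number of Pex calls also fell or stayed the same with an array left out. It fell furthest against brown cells without a brown array, where calls over all genes also fell most. The sign of the difference did not turn for any Pex gene in these comparisons when an array was left out: 11 of 12 stayed below white, the probe set read for Pex6 stayed above it, and all 12 stayed below brown.

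The genes of membrane assembly held the largest Pex difference from white cells. Pex16, a membrane protein that helps recruit other peroxisomal membrane proteins, measured 8.99 on the GFP and 8.50 on the LacZ array, 10.98 and 11.10 on the white arrays, and 10.36 and 10.93 on the brown arrays. Both bone marrow-derived arrays were low and no other array came near them. The difference was -2.29 ± 0.27 against white (4.91-fold lower, adjusted p = 0.0066) and -1.90 ± 0.27 against brown (3.73-fold lower, adjusted p = 0.0117). Pex19, the cytosolic chaperone of membrane proteins, measured 8.19 and 8.36, then 9.83 and 10.15 in white and 10.01 and 10.18 in brown cells. White and brown arrays overlapped and the bone marrow-derived pair lay well below. It was 3.29-fold lower than in white (-1.72 ± 0.19, adjusted p = 0.0059) and 3.53-fold lower than in brown cells (-1.82 ± 0.19, adjusted p = 0.00576). Pex3, the membrane anchor on which Pex19 docks, had smaller differences of -0.93 ± 0.19 from white and -1.11 ± 0.19 from brown cells, both called (adjusted p = 0.0218 and 0.0178).

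Among the import receptors, Pex7, which carries enzymes with an amino-terminal signal such as thiolase and Phyh, measured 9.09 on the GFP and 8.28 on the LacZ array. It measured 9.91 and 9.94 in white and 10.49 and 10.36 in brown cells. The LacZ array was the lowest, and the white arrays lay between the other groups. Pex7 was called lower against white (-1.24 ± 0.29, adjusted p = 0.0335) and brown cells (-1.73 ± 0.29, adjusted p = 0.0175). Pex5, the receptor for the more common carboxy-terminal signal, differed by -1.01 ± 0.24 from white and -1.45 ± 0.24 from brown cells (adjusted p = 0.0330 and 0.0163).

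Both docking genes were called lower in both comparisons. Pex13, the docking protein that also forms part of the import pore, measured 9.80 and 9.38 in bone marrow-derived, 11.34 and 11.50 in white and 11.58 and 11.67 in brown cells. No groups overlapped, and white and brown cells lay close together. The difference was -1.83 ± 0.20 from white (3.55-fold lower, adjusted p = 0.00584) and -2.04 ± 0.20 from brown cells (4.10-fold lower, adjusted p = 0.0051). Its docking partner Pex14 differed by -1.12 ± 0.21 and -1.32 ± 0.21 (adjusted p = 0.0182 and 0.0151).

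Of the RING-finger ubiquitin ligases that release the receptors for reuse, Pex10 was called lower in both comparisons, at -0.96 ± 0.21 and -1.28 ± 0.21 (adjusted p = 0.0280 and 0.0166). Pex2 was called only against brown cells, at -1.28 ± 0.21 (adjusted p = 0.0160), and against white cells the difference was -0.72 ± 0.21 (adjusted p = 0.0571). Pex6, an ATPase that pulls receptors out of the membrane, had a pattern of its own. It measured 9.41 and 9.30 in bone marrow-derived, 8.81 and 9.14 in white and 10.22 and 9.87 in brown cells. The bone marrow-derived arrays lay between white and brown, with no overlap. Neither difference was called, at 0.38 ± 0.21 from white (adjusted p = 0.255) and -0.69 ± 0.21 from brown cells (adjusted p = 0.0764). The direction against white cells depended on the probe set, and the other Pex6 probe sets gave -0.098 ± 0.37, -0.27 ± 0.33 and 1.26 ± 0.41, none of them called. Pex26, the membrane anchor of Pex6, had values of 6.81 and 7.68 in bone marrow-derived cells and differences of -0.959 ± 0.35 and -0.998 ± 0.35, neither of them called (adjusted p = 0.104 in both).

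Pex11a, which shapes the membrane when peroxisomes multiply, measured 9.57 on the GFP and 7.85 on the LacZ array, 10.41 and 11.004 in white and 11.26 and 11.19 in brown cells. The bone marrow-derived pair was 1.72 apart, with that of Abcd2 the widest gap of the 31 genes. The difference from brown cells was -2.51 ± 0.58 (5.71-fold lower, adjusted p = 0.0371). Against white cells it was -2.00 ± 0.58 and was not called (adjusted p = 0.0578). A second Pex11a probe set gave -2.58 ± 0.51 against white cells, with an adjusted p of 0.0204 in a fit of all 43057 probe sets.

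The 19 oxidation, transport, ether lipid and catalase genes had a median of -1.02 against white cells, close to that of the Pex genes, with a wider range from -3.98 to 0.34. Of them 14 were called lower and 0 higher. Against brown cells the median was -1.60, with a range from -3.11 to 0.34, and 16 were called lower. With an array left out, fewer of the 19 were called in both comparisons, a fall shared with all genes. Of the 19, 17 stayed below white and 17 below brown cells whichever array was left out. Ehhadh, Hsd17b4, Acaa1b, Pecr, Hacl1 and Gnpat were called against white cells whichever array was left out, as were Pex13, Pex16 and Pex19. Against brown cells this held for Ehhadh and Gnpat.

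**Figure D2:**
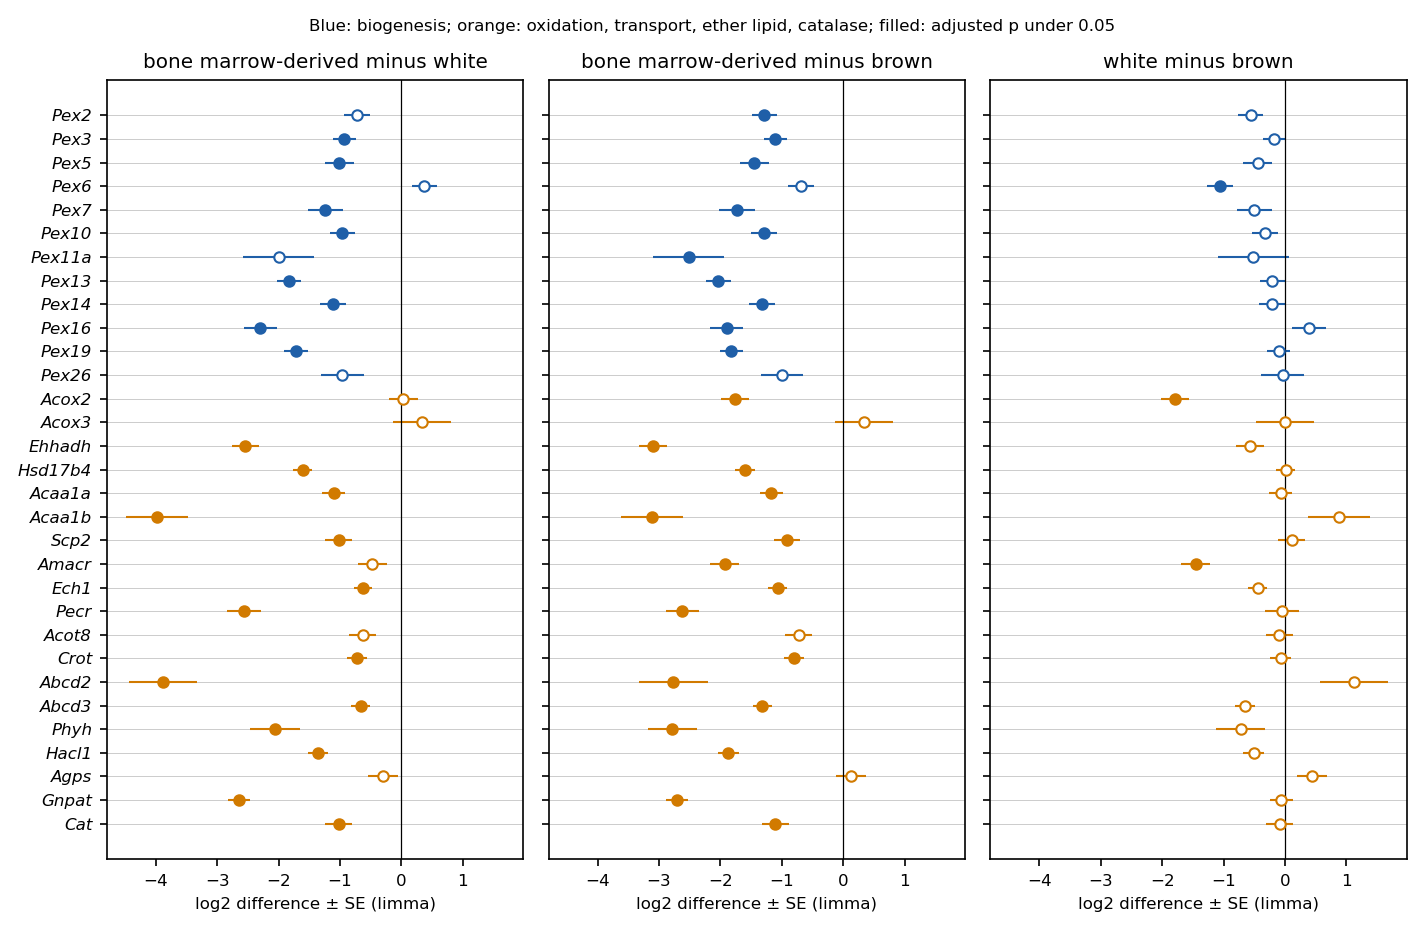
Log2 difference of each of the 31 genes (horizontal axis, point with limma's standard error, n = 2 arrays in each group) in the 3 comparisons, with Pex genes in blue, the other peroxisome genes in orange, and filled points for an adjusted p under 0.05. Filled points lie left of 0 for 22 genes against white and 26 against brown cells, and for 3 genes between white and brown cells.

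The largest single difference in both comparisons was of a beta-oxidation gene, Acaa1b, but as a group these genes were not the most reduced. Of the 12, 8 were called lower against white and 10 against brown cells, with medians of -0.87 and -1.38. Against white cells the median was -1.06 over the Pex genes and -2.27 over the 2 transporters. Acaa1b, a thiolase that cuts the shortened fatty acid at the last step of the cycle, measured 8.66 on the GFP and 7.08 on the LacZ array, 11.88 and 11.83 in white and 11.02 and 10.94 in brown cells. The bone marrow-derived arrays were far below the others, and white arrays were the highest. Acaa1b was 15.8-fold lower than in white (-3.98 ± 0.51, adjusted p = 0.00736) and 8.63-fold lower than in brown cells (-3.11 ± 0.51, adjusted p = 0.0162). The near-identical thiolase gene Acaa1a had smaller differences of -1.10 ± 0.18 and -1.17 ± 0.18 (adjusted p = 0.0137 and 0.0149). The probe sets of Acaa1a carry the suffix of probes that may also bind related transcripts, so its values may include Acaa1b signal. Probe sets annotated to both thiolases named neither gene, and they gave -1.47 and -1.17 against white and -1.002 and -0.763 against brown cells.

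Both thiolase genes lie on chromosome 9, and their promoters are shown because the pair differed in size of change. The 120 bases before each start site (RefSeq, GRCm38.p6), 5′ to 3′ on the strand of the gene, were taken from chr9:119341174-119341293 on the plus strand for Acaa1a and chr9:119157094-119157213 on the minus strand for Acaa1b. Capitals mark GC boxes (GGGCGG) and the inverted CCAAT box (ATTGG).
Acaa1a: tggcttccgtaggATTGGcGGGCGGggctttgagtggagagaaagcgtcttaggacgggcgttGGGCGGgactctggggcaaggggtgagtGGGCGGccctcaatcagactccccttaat
Acaa1b: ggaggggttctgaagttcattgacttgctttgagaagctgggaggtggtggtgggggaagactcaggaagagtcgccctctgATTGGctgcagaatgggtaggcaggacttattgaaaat
The Acaa1a stretch held 3 GC boxes and 62.5% G and C, and the Acaa1b stretch none and 51.7%. Over the full windows of 300 bases, 177 of 258 aligned bases were identical, with 84 gap positions. The sizes of change of the pair were not compared by a test, and any link to the promoters was not tested.

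Ehhadh, the bifunctional enzyme of the classical inducible pathway, measured 7.15 and 6.64 in bone marrow-derived, 9.38 and 9.49 in white and 10.10 and 9.90 in brown cells. The 3 groups did not overlap. The differences were -2.54 ± 0.23 from white (5.81-fold lower, adjusted p = 0.00395) and -3.10 ± 0.23 from brown cells (8.59-fold lower, adjusted p = 0.00297). Hsd17b4, the bifunctional enzyme of the other stereochemistry that handles most very long and branched chains, was 3.05-fold and 3.02-fold lower (-1.61 ± 0.16 and -1.60 ± 0.16, adjusted p = 0.0046 and 0.0051).

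Pecr, an enoyl-CoA reductase of chain elongation and phytol breakdown, measured 6.37 and 5.80, then 8.43 and 8.88 in white and 8.82 and 8.59 in brown cells. White and brown arrays overlapped, and the bone marrow-derived pair lay apart. It was 5.92-fold lower than in white (-2.57 ± 0.28, adjusted p = 0.00551) and 6.14-fold lower than in brown cells (-2.62 ± 0.28, adjusted p = 0.00578). Scp2, whose longer form is a thiolase for branched chains, differed by -1.02 ± 0.22 and -0.91 ± 0.22 (adjusted p = 0.0262 and 0.0415). Ech1, an isomerase for fatty acids with uneven double bonds, differed by -0.62 ± 0.15 and -1.07 ± 0.15 (adjusted p = 0.0354 and 0.0110).

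Enzymes that take products out of the cycle gave mixed calls. Crot, which joins shortened chains to carnitine for export, was called lower at -0.72 ± 0.16 and -0.80 ± 0.16 (adjusted p = 0.0301 and 0.0285). A dimmer Crot probe set gave 0.78 ± 0.32 and 0.65 ± 0.32, in the opposite direction and not called (adjusted p = 0.149 and 0.227). Acot8, a thioesterase, had differences of -0.63 ± 0.22 and -0.73 ± 0.22, neither of them called (adjusted p = 0.0950 and 0.0757).

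The enzymes for branched chains split by comparison. Amacr, the racemase that turns branched acyl-CoAs into the form the oxidases accept, measured 8.20 and 7.91 in bone marrow-derived, 8.28 and 8.78 in white and 10.07 and 9.90 in brown cells. White arrays were near the bone marrow-derived ones, and brown arrays stood above both. It was 3.81-fold lower than in brown cells (-1.93 ± 0.23, adjusted p = 0.00785), and the difference from white cells was -0.48 ± 0.23 (adjusted p = 0.206). Acox2, the oxidase of branched chains and bile acid precursors, measured 3.63 and 3.61, then 3.33 and 3.84 in white and 5.24 and 5.53 in brown cells. These values lie near the low end of the arrays, where a fold is understated, and white arrays lay on either side of the bone marrow-derived pair. Acox2 differed by -1.76 ± 0.23 from brown (adjusted p = 0.00919) and by 0.03 ± 0.23 from white cells (adjusted p = 0.934).

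Acox3, another oxidase of branched chains, had no clear direction. Its brightest probe set measured 6.98 on the GFP and 5.54 on the LacZ array, on either side of all other arrays, which ran from 5.75 to 6.09. The differences were 0.34 ± 0.47 from both white and brown cells (adjusted p = 0.654 and 0.645). A second Acox3 probe set gave -1.49 ± 0.24 and -1.09 ± 0.24, both called lower (adjusted p = 0.0113 and 0.0331 over all 43057 probe sets).

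Both transporters that bring acyl-CoAs into the peroxisome were called lower in both comparisons. Abcd2, which prefers very long and polyunsaturated chains, measured 9.08 on the GFP and 7.36 on the LacZ array, 11.95 and 12.26 in white and 10.92 and 11.05 in brown cells. White arrays were the highest and the LacZ array the lowest. The difference was -3.89 ± 0.56 from white (14.8-fold lower, adjusted p = 0.00942) and -2.76 ± 0.56 from brown cells (6.79-fold lower, adjusted p = 0.0273). Without white replicate 2 the adjusted p against white cells was 0.0510. Abcd3, the broad transporter of branched and dicarboxylic chains, had smaller differences of -0.66 ± 0.16 and -1.32 ± 0.16 (adjusted p = 0.0343 and 0.00771).

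The alpha-oxidation genes, which remove a carbon from phytanic acid before beta-oxidation can start, were also lower. Phyh, the hydroxylase of the first step, measured 10.66 on the GFP and 9.45 on the LacZ array, 12.07 and 12.16 in white and 12.90 and 12.78 in brown cells. The groups did not overlap, and brown arrays were the highest. It was 4.16-fold lower than in white (-2.06 ± 0.40, adjusted p = 0.0199) and 6.87-fold lower than in brown cells (-2.78 ± 0.40, adjusted p = 0.0118). Hacl1, the lyase of the next step, was 2.56-fold and 3.65-fold lower (-1.36 ± 0.16 and -1.87 ± 0.16, adjusted p = 0.0068 and 0.00397).

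The enzymes of ether lipid synthesis went apart. Gnpat, the acyltransferase that starts the pathway, measured 8.52 and 8.71 in bone marrow-derived, 11.13 and 11.40 in white and 11.25 and 11.40 in brown cells. The pair of bone marrow-derived arrays agreed closely and lay far below the other 4. Gnpat was 6.26-fold lower than in white (-2.65 ± 0.18, adjusted p = 0.00352) and 6.52-fold lower than in brown cells (-2.70 ± 0.18, adjusted p = 0.00268), the smallest adjusted p of the 31 genes in both comparisons. Agps, which acts next and puts in the ether bond, measured 10.03 and 9.48, then 10.05 and 10.07 in white and 9.46 and 9.79 in brown cells. Its bone marrow-derived and brown arrays overlapped, and the white arrays lay above both, just above the GFP array. The differences were -0.30 ± 0.25 from white (adjusted p = 0.427) and 0.13 ± 0.25 from brown cells (adjusted p = 0.740). Other Agps probe sets differed: one gave 1.07 ± 0.28 against white (adjusted p = 0.0448), and a dim one gave -2.14 ± 0.19 against brown cells (adjusted p = 0.00374).

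Catalase (Cat), which breaks down hydrogen peroxide, measured 11.24 and 10.77 in bone marrow-derived, 11.93 and 12.12 in white and 12.20 and 12.03 in brown cells. Both bone marrow-derived arrays were low, and white and brown arrays overlapped. The differences were -1.02 ± 0.22 from white (2.03-fold lower, adjusted p = 0.0261) and -1.11 ± 0.22 from brown cells (2.16-fold lower, adjusted p = 0.0258). A second Cat probe set gave larger differences of -1.93 ± 0.31 and -1.94 ± 0.31.

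Between white and brown adipocytes few peroxisome genes were called. Of the 31 genes, 3 were called lower in white cells, Pex6, Acox2 and Amacr, and 0 higher, where 5.34% of all genes were called lower and 3.87% higher. Another 4 had an unadjusted p under 0.05, for 7 of 31 in all. The share of all genes at that looser threshold is not given here, so this count is no result about the members. The median was -0.27 over the Pex genes, with 11 of 12 below 0, and -0.07 over the 19 others, with 14 of 19 below 0, where the median of all genes was 0.02. Pex6 was 2.09-fold lower in white cells (-1.06 ± 0.21, adjusted p = 0.0404) and Amacr 2.74-fold (-1.46 ± 0.23, adjusted p = 0.0250). Acox2 differed by -1.80 ± 0.23 (adjusted p = 0.0155). Its white values lie near the low end of the arrays, so no fold is given, and it was the 1 member left out by a filter on dim genes. Abcd2 and Acaa1b lay the other way, at 1.12 ± 0.56 and 0.87 ± 0.51, neither of them called (adjusted p = 0.280 and 0.346). Both were called higher in white cells with either bone marrow-derived array left out (adjusted p = 0.0304 for Abcd2 and 0.0343 for Acaa1b), when the fit holds only the spread of white and brown arrays. Each of the 3 calls was lost without either brown array, that of Pex6 also without either white array and that of Amacr without white replicate 1.

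Of the 31 genes, 13 had a single named probe set and 18 had several, 57 probe sets in all. In no gene were probe sets called in opposite directions in a comparison. Second probe sets gave larger differences from white cells for Pex3 (-1.65 ± 0.20) and Pex5 (-2.09 ± 0.28), and those of Pex13 and Abcd2 included -1.96 ± 0.28 and -4.14 ± 0.45. The second probe set of Pex16 gave a smaller value of -0.72 ± 0.21, which was not called (adjusted p = 0.0658). A dim second probe set of Pecr gave -0.19 ± 0.21, and one of Pex2 gave 0.50 ± 0.35.

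**Figure D3:**
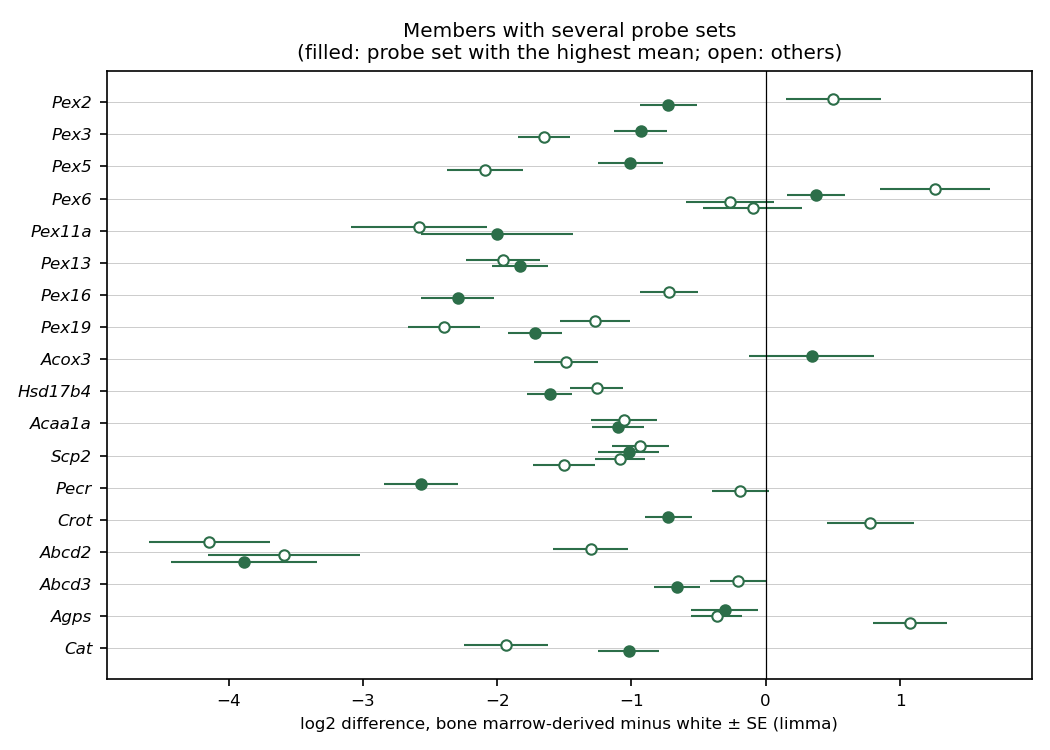
Log2 difference of bone marrow-derived minus white cells (horizontal axis, with limma's standard error, n = 2 arrays in each group) for every probe set of the 18 genes with several, the probe set in use filled and the others open. Most open points lie left of 0 with the filled one, and those of Crot, Pex2, Pex6 and Agps right of 0 stand apart.

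Promoter windows of 300 bases, from 250 before to 50 after the RefSeq start site (GRCm38.p6), matched 26 of the 31 genes with 31 windows. Pex2, Pex19, Abcd2, Hsd17b4 and Amacr were not matched. Both strands were searched for 7 motifs, given here as letters. The GC box GGGCGG was in 67.7% of the 31 windows, against 35.7% of all 32851 windows and 53.0% of the 17580 windows of genes on the array. The CCAAT box CCAAT was in 45.2%, against 37.4% and 37.3%. The nuclear receptor half-site AGGTCA was in 9.68%, against 16.3% and 14.1%, and its holders were Cat, Phyh and Scp2. Its extended form AAGGTCA was in 0 of the windows, against 4.72% and 3.84%. The spaced repeat AGGTCANAGGTCA, the form that PPAR and RXR receptors bind, overlaps the half-site and was searched with up to 2 mismatches. It was in 6.45%, against 3.86% and 3.26%, in Cat and Acox2. A match is a run of letters and not a shown site of binding.

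The windows of Pex13, Gnpat and Cat are shown in part because they hold, before the start site, motifs that are rare in the set. The spaced repeat of Acox2 lay after its start site. These genes were called lower in both comparisons except Acox2, and the calls were not used in the choice. Capitals mark the cyclic AMP response element TGACGTCA in Pex13 (chr11:23665939-23665986, minus strand), the E-box CACGTG in Gnpat (chr8:124862789-124862834, plus strand) and the spaced repeat in Cat (chr2:103485325-103485377, minus strand), all on GRCm38.p6 and 5′ to 3′.
Pex13: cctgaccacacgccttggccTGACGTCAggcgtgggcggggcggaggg
Gnpat: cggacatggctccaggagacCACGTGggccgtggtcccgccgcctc
Cat: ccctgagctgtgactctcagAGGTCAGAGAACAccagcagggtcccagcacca
TGACGTCA was in 3.23% of the 31 windows, against 1.79% of all windows and 2.54% of those of array genes. CACGTG was in 3.23%, against 7.15% and 8.78%. Each was in a single window of the set.

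Other peroxisomal genes were read from a list of 51, of which 44 were measured. Against white cells 20 were called lower and 1 higher (median -0.87), and against brown cells 26 lower and 1 higher (median -1.16). The lowest against white cells were Pxmp2, a channel of the peroxisomal membrane (-3.19 ± 0.38, adjusted p = 0.00659), the isomerase Eci3 (-2.79 ± 0.64, adjusted p = 0.0312) and the thioesterase Acot4 (-2.51 ± 0.40, adjusted p = 0.0119). The call in the other direction was Far1, the reductase that makes fatty alcohol for ether lipids. Far1 measured 11.65 and 11.68 in bone marrow-derived, 10.82 and 10.43 in white and 10.63 and 10.31 in brown cells. Both bone marrow-derived arrays were above all others, the reverse of Gnpat. Its differences were 1.04 ± 0.21 and 1.20 ± 0.21 (adjusted p = 0.0226 and 0.0198).

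Between white and brown cells 6 of the 44 were called lower and 0 higher. Slc27a2, an acyl-CoA synthetase for very long chains, measured 11.02 and 10.45 in brown cells, and from 2.73 to 3.16 on the other 4 arrays, near the low end of the range. The difference of bone marrow-derived from white cells was 0.26 ± 0.24 and was not called (adjusted p = 0.495). Both lay below brown cells, by -7.72 ± 0.24 and -7.98 ± 0.24 (adjusted p = 0.000945 and 0.00137). Ddo, an oxidase of acidic D-amino acids, was called lower in all 3 comparisons, at -2.41 ± 0.38, -5.32 ± 0.38 and -2.90 ± 0.38.

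Further genes of peroxisome number and shape gave 1 lower and 1 higher call of 11 measured against white cells, and 2 lower and 1 higher against brown cells. These shares, 9.09% each against white cells and 18.2% and 9.09% against brown, are near those of all genes given above. Tmem135, a peroxisomal membrane protein, was called lower against white (-2.10 ± 0.17, adjusted p = 0.00373) and brown cells (-1.80 ± 0.17, adjusted p = 0.00462). Trim37, a ubiquitin ligase that acts on Pex5, measured 12.29 and 12.49 in bone marrow-derived, 9.19 and 8.68 in white and 11.01 and 10.85 in brown cells. It was called higher at 3.45 ± 0.23 and 1.46 ± 0.23 (adjusted p = 0.00352 and 0.0145). The fission genes Fis1, Mff and Dnm1l were not called in either comparison, with differences from -0.53 to 0.43.

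Of 17 measured regulators of fat oxidation, 7 were called lower and 1 higher against white cells, and 7 lower and 0 higher against brown cells. The higher call was Prdm16, also listed as a brown marker, at 1.36 ± 0.36 (adjusted p = 0.0463). Against brown cells Prdm16 differed by -0.41 ± 0.36 and was not called (adjusted p = 0.466). Ppara, the receptor best known for inducing peroxisomal oxidation, measured 5.00 and 3.95 in bone marrow-derived, 5.75 and 6.57 in white and 10.54 and 10.05 in brown cells. It was called lower in all 3 comparisons, at -1.69 ± 0.46, -5.82 ± 0.46 and -4.13 ± 0.46 (adjusted p = 0.0497, 0.0035 and 0.0123). The coactivator Ppargc1a was called lower against white (-3.31 ± 0.47, adjusted p = 0.00907) and brown cells (-5.14 ± 0.47, adjusted p = 0.00415), and in white against brown the value was -1.82 ± 0.47 (adjusted p = 0.0757). Pparg, the receptor of adipocyte identity, had group means of 11.69 ± 0.17, 11.82 ± 0.27 and 11.91 ± 0.04 (SD, n = 2), and its differences of -0.13 ± 0.20 and -0.22 ± 0.20 were not called (adjusted p = 0.689 and 0.478).

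Calls among mitochondrial oxidation and adipocyte marker genes were also mostly to the lower side. Of 17 mitochondrial oxidation genes, 11 were called lower against white (median -1.21), 16 against brown (median -2.15) and 7 in white against brown cells (median -0.94). The 16 measured genes of the tricarboxylic acid cycle gave 9, 16 and 12 lower calls and 0 higher. Of 10 adipocyte markers, 3 were called lower against white and 2 against brown cells, with medians of -1.30 and -0.93. The log2 of their summed level was 15.65 and 15.07 in bone marrow-derived, 16.21 and 16.37 in white and 16.04 and 16.07 in brown cells. Such a sum, here and below, is weighted to the brightest probe sets and is compared only across arrays for the same list. The LacZ array was lowest in these adipocyte markers. It was below the GFP array in 21 of the 31 peroxisome genes and in 7211 of all 17720 genes. White replicate 2 was the higher of its pair in most of the 31. White replicate 1 was above it in 2 of the 31 and in 7325 of all genes. Brown replicate 1 was above brown replicate 2 in 16 of the 31 and in 9043 of all genes.

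The log2 summed level of the 12 endothelial markers was 15.07 and 15.59 in bone marrow-derived, 12.01 and 10.97 in white and 14.70 and 14.36 in brown cells. Brown arrays lay between the other groups in these sums. Differences of the bone marrow-derived group from brown cells ran from 0.28 to 2.54 over the 12 markers (median 1.04). Of these, 2 were called higher and 0 lower. Peroxisome genes were averaged over the 31 members, each centred on its own mean. That average was -0.79 and -1.15 in bone marrow-derived, 0.24 and 0.48 in white and 0.60 and 0.62 in brown cells. The 10 macrophage markers, with 0 called in any comparison, had summed levels of 15.31 and 13.12, 15.36 and 14.05, and 13.33 and 12.46 in the same order of arrays. Of 8 fibroblast markers 3 were called higher against white and 4 against brown cells, with summed levels of 14.46 and 14.29, 13.68 and 13.38, and 12.55 and 12.18. Of 5 smooth muscle markers 3 were called higher against white and 3 against brown cells, with medians of 2.06 and 2.61, and their summed levels were 13.55 and 14.02, 12.44 and 12.52, and 12.90 and 12.65. Myh11 and Tagln were called in both, at 3.93 ± 0.34 and 3.58 ± 0.34 for Myh11 and 2.33 ± 0.37 and 3.69 ± 0.37 for Tagln. The part of these cell types, and of the lower adipocyte markers, in the peroxisome differences was not tested.

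**Figure D4:**
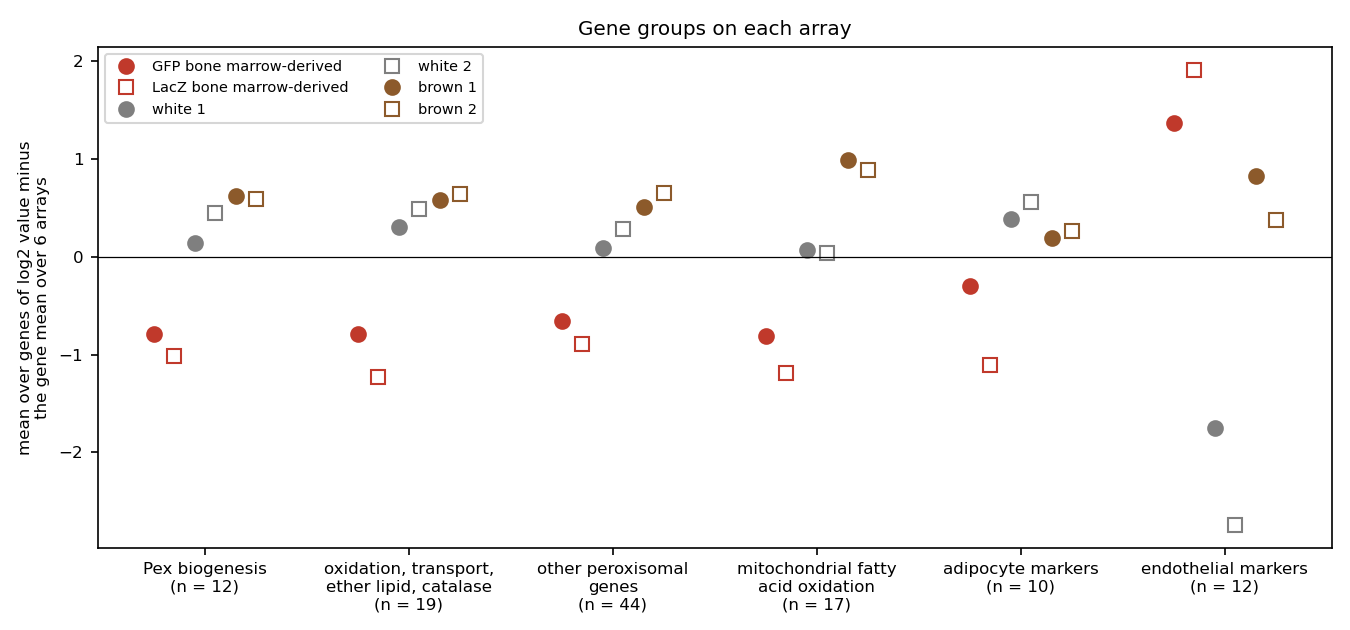
Mean over the genes of a group of the log2 value minus the gene's mean over the 6 arrays (vertical axis), for each array and 6 gene groups. The bone marrow-derived arrays (red) are lowest in both peroxisome groups, in other peroxisomal genes, mitochondrial oxidation and adipocyte markers and highest in endothelial markers, where the white arrays (grey) are lowest.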

How the data were processed

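RNA of 6 sorted adipocyte samples was measured on oligonucleotide arrays. The deposited values were read as log2 levels per probe set, 1 column per array. The base is not stated and was taken from their range, and the submitters' processing notes name RMA and Partek without versions. RMA equalizes array distributions, so a shift of all genes cannot be seen. The values ran from 1.67 to 14.0, with array medians from 5.46 to 5.72. There are no detection calls, and precision is limited by the number of arrays.

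Of 43057 probe sets, 33565 were paired with a single symbol by the platform annotation, 857 with several, which named no gene, and 8635 with none here. Group means of all 6 arrays were fitted with limma 3.58.1 in R 4.3.3, with empirical Bayes moderation (3 residual and 2.35 prior degrees of freedom), two-sided tests and Benjamini-Hochberg adjustment over 17720 genes. Values of further probe sets come from the same kind of fit over all 43057 probe sets, named or not. The fit was tested on simulated data. Promoter sequences are from RefSeq (GRCm38.p6).

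All measured members are named. Array values are given in full for the 4 called members with the largest difference in each group of genes and comparison, and for a few others chosen after their values were seen: Acox3, Agps, Cat, Far1, Trim37, Slc27a2 and Ppara. Up to 3 called genes a direction are named from other lists, and the fission genes, Ddo and Xist also. Members and lists were chosen with earlier results of these data known. Alternatives varied the scaling, probe set, filter, arrays in the fit, moderation and replicate block.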

Additional observations from a re-analysis of the deposited data

How the results depend on the processing

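Alternatives are given for numbers of called genes (Pex; the other 19) and for single genes. Against white cells the counts of 8 and 14 became 3 and 8 with only the 2 groups compared in the fit, and 0 and 4 without moderation. They ran from 3 to 8 and from 6 to 11 with an array left out. Against brown cells the counts of 10 and 16 became 2 and 6 without moderation, and ran from 0 to 10 and from 2 to 15 with an array left out. Between white and brown cells the counts of 1 and 2 became 0 and 0 without moderation and ran from 0 to 1 and from 0 to 4 with an array left out. There the Pex count was 0 with the mean of probe sets or the probe set of largest variance, when 5.30% and 5.71% of all genes were called lower. The other count was 1 without dim genes, when 7.64% were called lower and 5.64% higher. It was 4 with 2 groups in the fit (2 lower and 2 higher, Abcd2 and Acaa1b), when the shares were 6.86% and 5.85%. It was also 4 with a trended, robust moderation, when they were 6.42% and 4.72%. Leaving out an array or a group takes residual degrees of freedom away, and a lone array is then assumed to vary like the other groups. Without either brown array the test against white cells is the one with 2 groups.

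With a replicate block, the counts were 8 and 12 against white, 9 and 15 against brown, and 0 and 1 between white and brown cells. Of all genes, 12.1%, 10.1% and 3.61% were then called lower, and 10.6%, 7.22% and 3.52% higher. In the same order, deviations from group means of same-numbered arrays correlated at 0.21, -0.0038 and 0.28 over genes. The labels do not tie the numbers to an animal or day, so whether such arrays share either is not known.

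Of 93 single differences, 51 were called, and 39 of those lost their call without moderation. The sign of a called difference turned 3 times, each time for Crot. Crot became 0.028 against white with the mean of probe sets. It became 0.78 against white and 0.65 against brown cells with the probe set of largest variance. The other 40 turns were of differences that had not been called. With the mean of probe sets and then the largest variance, Acox3 became -0.57 and -1.49 against white, -0.38 and -1.09 against brown and 0.20 and 0.39 between white and brown cells. In the same order Agps became -0.44 and -2.14 against brown and -0.57 and -1.78 between white and brown, Pex19 0.15 and 0.22, and Scp2 -0.12 and -0.20. Agps became 0.13 against white and Hsd17b4 -0.084 between white and brown with the mean, and Pex6 0.56 against brown with the largest variance. Centring turned Acox2 against white (-0.13), Agps against brown (-0.064) and Hsd17b4 between white and brown (-0.014). With an array left out, values that changed sign ran against white from -0.22 to 0.29 (Acox2) and -0.38 to 1.06 (Acox3), and against brown from -0.38 to 1.06 (Acox3) and -0.15 to 0.41 (Agps). Between white and brown they ran from -0.44 to 0.026 (Pex14), -0.26 to 0.057 (Pex19), -0.30 to 0.22 (Pex26), -0.17 to 0.17 (Acox3), -0.027 to 0.052 (Hsd17b4), -0.23 to 0.089 (Acaa1a), -0.27 to 0.17 (Pecr), -0.35 to 0.16 (Acot8), -0.17 to 0.023 (Crot), -0.19 to 0.077 (Gnpat) and -0.18 to 0.0050 (Cat).

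Quantile normalization changed no direction. The filter on dim genes left 12089 genes and took out Acox2. With 2 arrays a group, a difference that was not called is not shown to be absent.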

Other observations

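Wide gaps between the bone marrow-derived arrays were found for 16.1% of the 31 peroxisome genes, a share not far from that of all genes given below. Over the 12 Pex genes the median absolute gap was 0.31 in this pair, 0.33 in the white and 0.16 in the brown pair. The GFP array was above the LacZ array by over 1 log2 unit for 5 of the 31 genes, which were Pex11a, Abcd2, Acaa1b, Acox3 and Phyh, at gaps from 1.21 to 1.72. A gap of this size in either direction was found for 10.9% of all genes in this pair. In the white and brown pairs 0 of the 31 genes had such a gap, where 8.24% and 2.26% of all genes did.

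The adipocyte markers Lipe (hormone-sensitive lipase), Plin4 and Cidec were called lower in bone marrow-derived than in white cells, at -1.90 ± 0.23, -2.55 ± 0.54 and -1.76 ± 0.44 (adjusted p = 0.00661, 0.0247 and 0.0402). Fabp4, a fatty acid carrier of mature fat cells, had differences of -0.03 ± 0.17 from white and -0.16 ± 0.17 from brown cells (adjusted p = 0.932 and 0.524). In mitochondrial oxidation, Hadha of the trifunctional protein was called lower in all 3 comparisons, at -1.23 ± 0.19, -3.30 ± 0.19 and -2.07 ± 0.19. Cpt1a, the outer membrane carnitine palmitoyltransferase, was called higher in bone marrow-derived than in brown (1.22 ± 0.23, adjusted p = 0.0227) and in white than in brown cells (1.20 ± 0.23, adjusted p = 0.0374).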
